A study of Homo sapiens with 9 samples.

Results

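The genes described here are 43 members of the unfolded protein response, the integrated stress response and the heat shock response, followed at the level of mRNA in the human hepatocellular carcinoma cell line Huh-7. Each was looked up by its gene name and found once among the 60664 genes of the count table. They were kept in 3 lists, namely 16 genes of the ATF4 arm, 21 genes of the XBP1/ATF6 arm and 6 cytosolic heat shock genes. The cells were Huh-7 wild type (WT), Huh-7 without the VTRNA1-1 gene (1-1 KO) and Huh-7 without the VTRNA1-2 gene (1-2 KO), which encode the small noncoding vault RNAs vtRNA1-1 and vtRNA1-2. All were grown in complete medium to 80% confluency, with no stress agent added, and 3 libraries were sequenced from each line. The WT cells and the cells without VTRNA1-1 came from another laboratory, and the line without VTRNA1-2 was grown from a single WT cell after Cas9 cutting with paired guide RNAs. No library of a complemented line and no other clone was part of the data, so that the loss of a vault RNA and any other difference between these lines cannot be told apart. The deleted genes could not be checked in these libraries, which were made from polyadenylated RNA. VTRNA1-1 had 1 count in a single WT library and 0 in the other 8, and VTRNA1-2 had 0 counts in all 9.

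Cells sense unfolded proteins in the endoplasmic reticulum (ER) through the kinase PERK (gene EIF2AK3), the kinase and nuclease IRE1 (ERN1) and the membrane-bound transcription factor ATF6. PERK and the amino acid sensor GCN2 (EIF2AK4) phosphorylate the translation factor eIF2, which lowers protein synthesis and favours translation of ATF4, the transcription factor of the integrated stress response. IRE1 splices XBP1 mRNA into the form that encodes an active factor, and ATF6 and XBP1 raise the chaperones and degradation machinery of the ER. Unfolded proteins in the cytosol act through a separate factor, HSF1, on the heat shock genes. Hepatocytes secrete large amounts of plasma protein, and their ER chaperones are abundant. Gene counts show only mRNA level, so that phosphorylation of eIF2, splicing of XBP1, cleavage of ATF6 and translation of ATF4 were not measured.

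The promoters of these genes carry short sequences by which the factors are known to act. Of the 43 members, 40 had a RefSeq promoter window on GRCh38.p14, from 250 bases before to 50 bases after the start, and both strands were searched. The ER stress response element (ERSE, CCAAT and CCACG with 9 bases of any kind between them) was found in 7 of 20 genes of the XBP1/ATF6 arm (35%) and in 0.0916% of 27305 genes with a window. Its shorter form ERSE-II (ATTGG and CCACG with 1 base between them) was found in 3 of the 20, namely HERPUD1, SDF2L1 and HYOU1, and in 0.0696% of all genes. The core of the composite C/EBP-ATF element (TGATGNAA), to which ATF4 binds with a C/EBP partner, was found in 2 of 15 genes of the ATF4 arm with a window (13.3%), CHAC1 and ASNS. It was also found in HERPUD1 of the XBP1/ATF6 arm and in 4.46% of all genes. The XBP1 element core (TGACGTGG) was present in HYOU1, where it overlaps ERSE-II, and in 0.927% of all genes. The heat shock element (GAA, TTC and GAA, each 2 bases apart) was found in HSPA8 alone among 5 heat shock members with a window, and in 0.608% of all genes. The stretches below are written 5′ to 3′ on the strand of the gene, with the matched letters of either strand in capitals. They belong to a selection of the members with a match. TRIB3, HSPA1B, PHGDH and PDIA4, whose levels also differed clearly between the lines, had a window but no match.
CHAC1 (chr15:40953247-40953284, plus strand, C/EBP-ATF core): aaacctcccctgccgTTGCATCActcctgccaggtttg
ASNS (chr7:97872454-97872491, minus strand, C/EBP-ATF core): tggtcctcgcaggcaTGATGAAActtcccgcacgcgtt
HERPUD1 (chr16:56931951-56932050, plus strand, C/EBP-ATF core and ERSE-II): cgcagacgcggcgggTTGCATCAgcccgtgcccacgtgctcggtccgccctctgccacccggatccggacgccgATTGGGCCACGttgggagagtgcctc
HSPA5 (chr9:125241376-125241424, minus strand, ERSE): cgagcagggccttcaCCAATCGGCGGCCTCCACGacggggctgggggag
XBP1 (chr22:28800588-28800636, minus strand, ERSE): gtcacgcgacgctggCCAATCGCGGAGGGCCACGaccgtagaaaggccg
HSP90B1 (chr12:103930201-103930354, plus strand, ERSE at both ends): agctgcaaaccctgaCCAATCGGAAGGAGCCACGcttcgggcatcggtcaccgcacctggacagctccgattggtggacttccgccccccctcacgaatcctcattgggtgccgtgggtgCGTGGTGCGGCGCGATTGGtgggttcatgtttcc
CANX (chr5:179698763-179698811, plus strand, ERSE): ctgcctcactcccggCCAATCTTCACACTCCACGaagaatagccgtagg
CALR (chr19:12938369-12938417, plus strand, ERSE): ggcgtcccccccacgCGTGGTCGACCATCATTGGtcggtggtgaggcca
A match of letters is a description of these windows and does not show that a factor was bound.

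Levels are given as CPM, the counts scaled to a common TMM-normalized library size, and levels of different genes are compared only per kilobase of exon (RPKM). Libraries held between 32384469 and 41782387 counts. In WT, HSPA8 stood at 580 RPKM, followed by CALR at 346, HSPA5 at 175, HSP90B1 at 166 and ATF4 at 160.0 RPKM. The lowest members were VLDLR at 0.935 and ASNS at 0.126 RPKM. All 43 passed the filter on low counts. The 16 genes of the ATF4 arm took 0.142% to 0.147% of the counts of the WT libraries, 0.149% to 0.151% in 1-1 KO and 0.199% to 0.204% in 1-2 KO. For the XBP1/ATF6 arm these shares were 0.901% to 0.907%, 0.753% to 0.761% and 0.883% to 0.892%.

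The first library of 1-2 KO stood apart from the other 2 of its line: the chi-square of its counts, divided by the degrees of freedom, was 15.1 and 16.1 against them, compared to 2.67 between them and 2.07 to 10.4 within WT and 1-1 KO. Where a call against WT of a gene described below was lost without it, that is said beside the gene. Hepatocyte markers were present in every line, with a summed level of 10 genes of 15064 to 16011 CPM in WT, 31260 to 32209 in 1-1 KO and 21264 to 23296 in 1-2 KO. Of 5 genes each, endothelial markers summed to at most 8.04 CPM, leukocyte markers to at most 3.83 CPM and fibroblast markers to 34.3 to 89.3 CPM in any library, and in each line 3 of the 5 endothelial markers had at most 3 counts per library. The part of the hepatocyte and fibroblast markers in the results below was not tested. In bulk RNA, a smaller number of cells with a transcript and less of it per cell cannot be told apart. The study describes the libraries of a line as biological replicates, without saying whether each came from a separate culture, and p-values measure the spread between these libraries.

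In 1-2 KO cells the ATF4 arm was higher than in WT, whereas in 1-1 KO cells its genes moved in both directions. Differential expression was tested with edgeR's quasi-likelihood test, and a gene was called at an adjusted p under 0.05 over 17207 tested genes. Of the 16 genes, 14 were called higher in 1-2 KO. Their median over the 16 was 0.39 on the log2 scale, compared to 0.02 over all tested genes. The other 2, SESN2 and EIF2AK3, were not called. Over all tested genes, 54.4% were called in this comparison, 28.2% higher and 26.2% lower. With a log2 change of at least 0.5 required in addition, 7 of the 16 were called higher, compared to 24.1% of all tested genes in either direction, 14.8% higher and 9.3% lower. In 1-1 KO, 5 of the 16 were called higher and 5 lower, which is 62.5%, near the 63.4% of all tested genes (32.5% higher and 30.9% lower), and their median was -0.03. With the size threshold, 3 were called higher (CHAC1, PHGDH and EIF2AK3) and TRIB3 lower, which is 25%, compared to 31.3% of all tested genes (18.6% higher and 12.7% lower).

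CHAC1, a glutathione-degrading enzyme induced by ATF4, differed most. Its level was 3.42, 3.65 and 4.31 CPM in the WT libraries, 5.36, 5.59 and 5.10 in 1-1 KO, and 18.3, 18.3 and 18.9 in 1-2 KO. The 3 lines did not overlap, and 1-2 KO lay far above both others. A lack of overlap was common in these data. It held for 68.9% of all tested genes between 1-1 KO and WT, 58.4% between 1-2 KO and WT and 69.8% between the knockouts. Of the 43 members it held for 35, 28 and 40 in the same order. Compared to WT, CHAC1 rose 4.89-fold in 1-2 KO (log2 fold change 2.29 ± 0.09 SE, n = 3 each, edgeR adjusted p = 3.9e-11) and 1.42-fold in 1-1 KO (0.50 ± 0.09, adjusted p = 0.000289). ASNS, which makes asparagine and is a standard ATF4 target, had few counts, at 0.578, 0.640 and 0.634 CPM in WT, 0.756, 0.681 and 0.833 in 1-1 KO, and 2.07, 1.86 and 2.00 in 1-2 KO. These values rest on 20 to 24 reads per WT library and 74 to 87 per 1-2 KO library. All 1-2 KO libraries lay above the others, a 3.19-fold rise over WT (1.68 ± 0.16, adjusted p = 6.75e-07), while the difference of 1-1 KO (0.30 ± 0.18) was not called (adjusted p = 0.25). In GENCODE 44, 49.3% of the exon bases of ASNS are shared with ENSG00000284707 on the same strand, whose counts were 7, 16 and 33 in WT, 22, 24 and 19 in 1-1 KO, and 40, 23 and 13 in 1-2 KO. The ASNS counts could thus have been split, or lack the shared reads if those were discarded, so that its true level remains uncertain.

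ATF4 itself was at 399.8, 425 and 430.0 CPM in WT, 366, 352 and 349 in 1-1 KO, and 498, 505 and 535 in 1-2 KO. The lines did not overlap and lay in the order 1-1 KO, WT, 1-2 KO. Compared to WT, ATF4 was 1.18-fold lower in 1-1 KO (-0.23 ± 0.04, edgeR adjusted p = 0.000163) but 1.23-fold higher in 1-2 KO (0.29 ± 0.04, adjusted p = 2.51e-05). TRIB3, a pseudokinase that restrains ATF4 signalling and is one of its targets, followed the same order with larger steps, at 62.1, 68.7 and 76.5 CPM in WT, 43.3, 44.4 and 44.6 in 1-1 KO, and 107, 96.2 and 99.5 in 1-2 KO. It was 1.56-fold lower in 1-1 KO (-0.65 ± 0.06, adjusted p = 6.73e-07) but 1.46-fold higher in 1-2 KO (0.55 ± 0.06, adjusted p = 3.52e-06). DDIT3, which encodes the pro-apoptotic factor CHOP, was at 15.2, 13.3 and 14.6 CPM in WT, 12.8, 12.8 and 15.6 in 1-1 KO, and 20.2, 20.7 and 21.6 in 1-2 KO. WT and 1-1 KO overlapped, and 1-2 KO lay above both, 1.45-fold over WT (0.54 ± 0.08, adjusted p = 5.46e-05). In these annotations DDIT3 shares 31.6% of its exon bases with genes of the opposite strand, among them MARS1, and whether the counting used strand is not stated. The related factor ATF5 was higher in both lines, 1.34-fold in 1-1 KO (adjusted p = 9.54e-06) and 1.16-fold in 1-2 KO (adjusted p = 0.00467).

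The enzymes of serine synthesis and folate metabolism in this list were called higher in 1-2 KO without exception. PHGDH, the entry step of serine synthesis, was at 115, 112 and 112 CPM in WT, 216, 221 and 214 in 1-1 KO, and 178, 185 and 199.8 in 1-2 KO. It was higher in both knockout lines, 1.91-fold in 1-1 KO (0.94 ± 0.04, edgeR adjusted p = 2.12e-10) and 1.65-fold in 1-2 KO (0.73 ± 0.04, adjusted p = 3.61e-09). PSAT1, the next step, averaged 188 ± 7.69 (SD, n = 3) CPM in WT, 218 ± 4.61 in 1-1 KO and 294 ± 9.14 in 1-2 KO, with a rise of 1.16-fold and 1.56-fold. The mitochondrial enzymes SHMT2 and MTHFD2 split between the lines. SHMT2 averaged 321 ± 6.45 CPM in WT, 276 ± 5.66 in 1-1 KO and 400.2 ± 14.4 in 1-2 KO. MTHFD2 averaged 133 ± 1.90, 115 ± 2.17 and 183 ± 6.56 CPM in the same order. Both fell 1.16-fold in 1-1 KO (adjusted p = 0.000115 and 0.00013) and rose in 1-2 KO, by 1.25-fold and 1.38-fold (adjusted p = 3.77e-06 and 7.04e-08).

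Of the kinases upstream of eIF2, EIF2AK3 was at 25.7, 26.5 and 26.0 CPM in WT, 40.9, 40.02 and 40.5 in 1-1 KO, and 24.7, 27.8 and 25.6 in 1-2 KO. It was higher in 1-1 KO than in any other library, 1.55-fold over WT (0.63 ± 0.05, edgeR adjusted p = 7.58e-08), and 1-2 KO overlapped WT (adjusted p = 0.966). For EIF2AK4, 1-1 KO overlapped WT (adjusted p = 0.499), with a 1.24-fold rise in 1-2 KO (0.31 ± 0.04, adjusted p = 1.62e-05). VLDLR, a lipoprotein receptor and ATF4 target, was 1.20-fold lower in 1-1 KO (adjusted p = 0.00199) but 1.26-fold higher in 1-2 KO (adjusted p = 0.000317). SESN2, a stress-induced inhibitor of growth signalling, averaged 13.6 ± 0.754, 13.9 ± 1.03 and 15.4 ± 1.74 CPM in the order WT, 1-1 KO, 1-2 KO and was called in neither line, although it was called in 1-2 KO without the second 1-2 KO library (0.26, adjusted p = 0.015). PPP1R15A, which encodes the eIF2 phosphatase subunit GADD34, and the transcription factor CEBPB were called in 1-2 KO with calls that depended on single libraries. CEBPB was at 10.8 CPM in the first 1-2 KO library, compared to 6.23 and 5.99 in the other 1-2 KO libraries and 4.57 to 5.71 in WT. Its log2 change of 0.59 (adjusted p = 0.015) became 0.26 (adjusted p = 0.0535) without that library, and that of PPP1R15A moved from 0.13 (adjusted p = 0.0286) to 0.11 (adjusted p = 0.0801). CEBPB was also not called without the first WT library (0.51, adjusted p = 0.0586), nor PPP1R15A without the first WT, the second WT or the second 1-2 KO library (adjusted p = 0.131, 0.0847 and 0.0846).

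**Figure D1:**
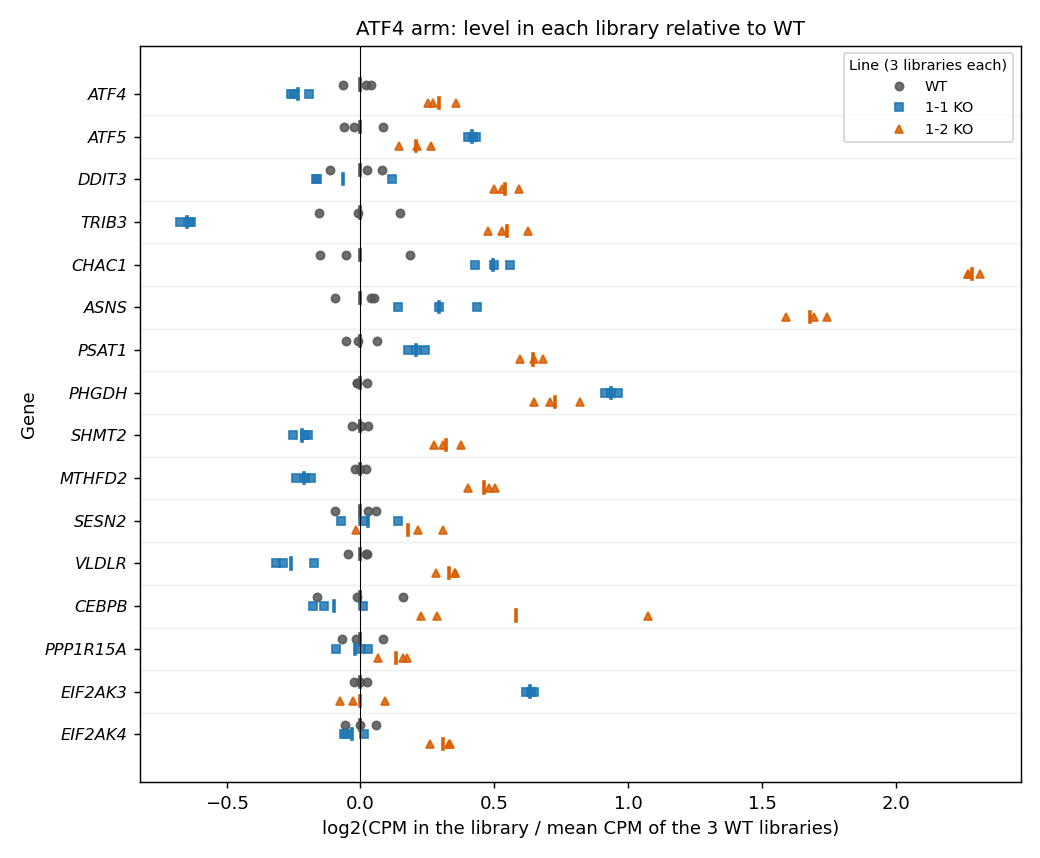
Level of the 16 genes of the ATF4 arm in each library, as log2 of CPM over the mean of the 3 WT libraries (horizontal axis), with 1 row per gene; symbols are libraries and vertical ticks are the log2 of each line's mean. The 1-2 KO libraries lie to the right for 14 genes, with CHAC1 at a log2 change of 2.29, and the 1-1 KO libraries lie on both sides.

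In a wider list of 43 further genes that ATF4 is known to control, 42 were tested, since FGF21 had too few counts. In 1-1 KO, 13 were called higher and 18 lower, and in 1-2 KO 20 were called higher and 11 lower; scaled by library size alone, the latter became 24 and 8. Of the 42, 73.8% were called in each knockout line. Over all tested genes, 63.4% were called in 1-1 KO (32.5% higher and 30.9% lower). In 1-2 KO these shares were 54.4% (28.2% higher and 26.2% lower). The median log2 change of the 42 was -0.03 in 1-1 KO and 0.12 in 1-2 KO. With a log2 change of at least 0.5 required, 9 were called higher and 7 lower in 1-1 KO, and 10 higher and 5 lower in 1-2 KO. Over all tested genes that threshold left 31.3% in 1-1 KO (18.6% higher and 12.7% lower) and 24.1% in 1-2 KO (14.8% higher and 9.3% lower). The groups within the list differed. Among 8 amino acid transporters, 5 were called higher and 1 lower in 1-2 KO, compared to 1 higher and 3 lower in 1-1 KO. Among 13 aminoacyl-tRNA synthetases, which load amino acids onto tRNAs, 5 were called higher and 3 lower in 1-2 KO, and 1 higher and 10 lower in 1-1 KO, where SARS1 fell 1.96-fold (edgeR adjusted p = 2.17e-10). Of the 9 enzymes of amino acid and folate metabolism outside the members, 2 were called higher and 4 lower in 1-2 KO, where the 4 member enzymes were all called higher.

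Of 4 tested genes of secreted factors in the wider list, all were called higher in 1-1 KO, and 3 were called higher and 1 lower in 1-2 KO. INHBE, an activin subunit made by liver cells, averaged 15.9 ± 0.984 CPM in WT, 43.8 ± 1.52 in 1-1 KO and 150.1 ± 5.49 in 1-2 KO, and was called higher in both (edgeR adjusted p = 1.98e-11 and 8.29e-15). STC2, a secreted glycoprotein, averaged 22.3 ± 1.23, 35.9 ± 0.585 and 78.1 ± 2.15 CPM and rose 1.61-fold and 3.50-fold. The steps from 1-1 KO to 1-2 KO were called as well, 3.42-fold for INHBE and 2.17-fold for STC2. GDF15, a secreted stress cytokine, averaged 93.2 ± 12.4 CPM in WT, 126 ± 5.07 in 1-1 KO and 46.3 ± 7.57 in 1-2 KO, and was 1.35-fold higher in 1-1 KO but 2.01-fold lower in 1-2 KO (adjusted p = 0.00121 and 1.02e-06). NUPR1, a small stress-induced chromatin protein, went the other way and was 2.30-fold lower in 1-1 KO and 3.10-fold lower in 1-2 KO (adjusted p = 2.75e-07 and 2.34e-08). ALDH1L2, a mitochondrial folate enzyme, rose 7.66-fold in 1-1 KO, from 0.412 ± 0.196 to 3.25 ± 0.380 CPM, and was at 0.188 ± 0.0552 CPM in 1-2 KO. Of the 17 tested genes of the member and wider lists with a C/EBP-ATF core in the window, 10 were called higher and 2 lower in 1-2 KO, and of the 29 with a window but no match, 18 were called higher and 6 lower, compared to 28.2% higher and 26.2% lower of all tested genes. The difference between genes with and without the core was not tested.

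**Figure D2:**
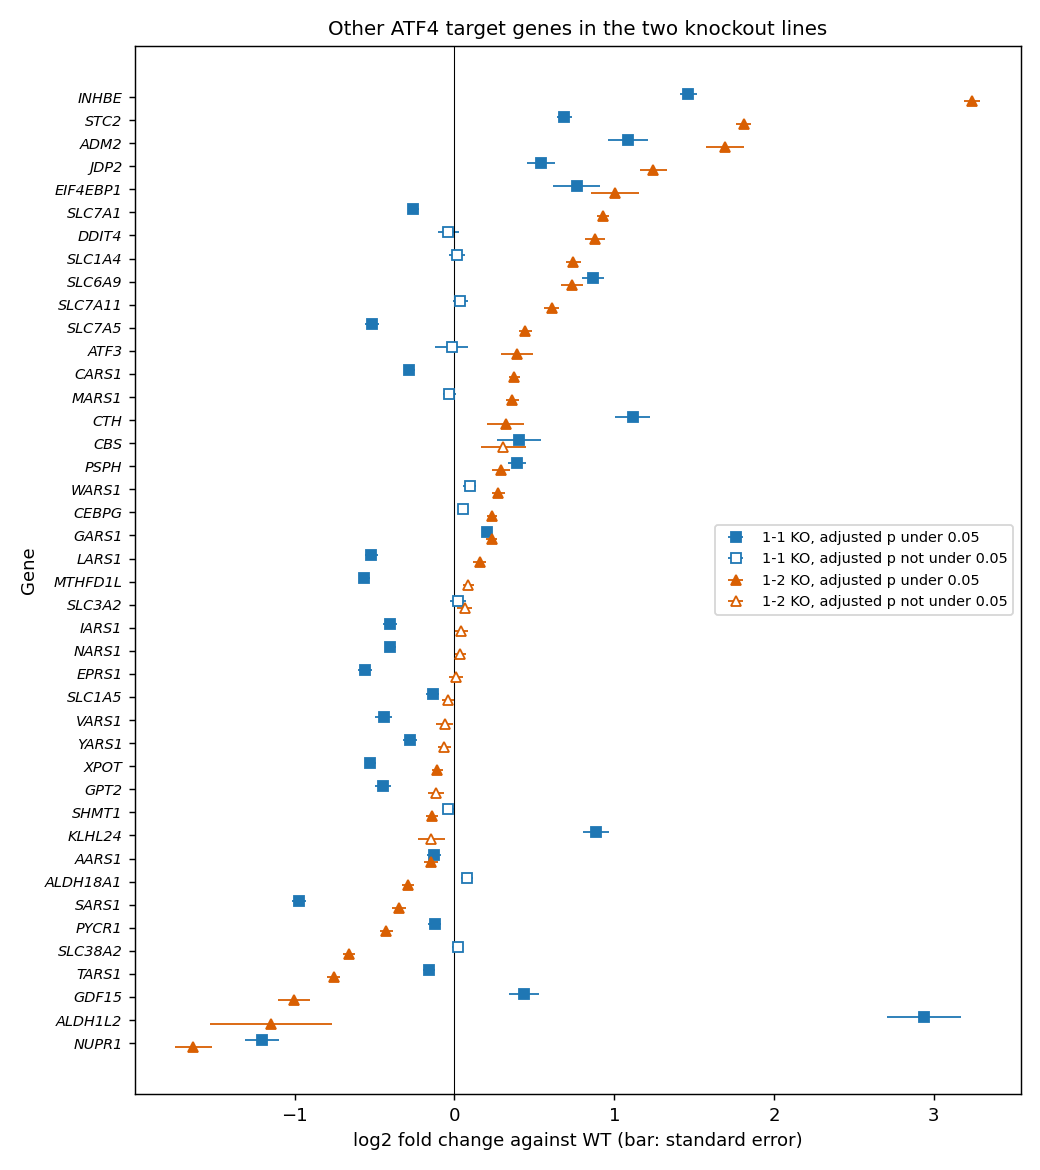
The log2 fold change against WT of the 42 tested genes of the wider ATF4 list (horizontal axis) in 1-1 KO (squares) and 1-2 KO (triangles), with 1 row per gene, ordered by the 1-2 KO value; bars are standard errors and filled symbols have an adjusted p under 0.05. The rows start with INHBE at 3.24 in 1-2 KO and end with NUPR1 at -1.63, and the 1-1 KO value of ALDH1L2 stands apart at 2.94.

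The 20 further genes around eIF2, which encode its subunits, kinases, exchange factor and phosphatase parts, were called 4 higher and 10 lower in 1-1 KO and 5 higher and 6 lower in 1-2 KO. Scaled by library size alone these became 6 and 7, and 7 and 4. With TMM scaling, 70% of the 20 were called in 1-1 KO and 55% in 1-2 KO, compared to 63.4% and 54.4% of all tested genes. EIF2AK1, the heme-regulated eIF2 kinase, rose 1.59-fold in 1-1 KO (edgeR adjusted p = 9.21e-10). The protease gene OMA1 and its substrate DELE1 pass mitochondrial stress on to that kinase. Both were called lower in 1-1 KO, and they went in opposite directions in 1-2 KO. With the change of neighbouring genes subtracted, DELE1 was not called in 1-2 KO (-0.12, adjusted p = 0.0773). OMA1 averaged 21.7 ± 0.724 CPM in WT, 8.29 ± 0.663 in 1-1 KO and 12.9 ± 0.640 in 1-2 KO, a fall of 2.62-fold and 1.69-fold (adjusted p = 7.87e-10 and 4.04e-07). DELE1 was 1.12-fold lower in 1-1 KO but 1.27-fold higher in 1-2 KO (adjusted p = 0.0128 and 6.05e-05), the former not called without the first WT library (0.066). IMPACT, an inhibitor of GCN2, rose 1.44-fold and 1.38-fold. EIF2S3, a subunit of eIF2, fell 1.41-fold in 1-1 KO, and PPP1CC, a catalytic phosphatase subunit, fell 1.22-fold in 1-2 KO.

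In 1-1 KO, 6 of the 21 genes of the XBP1/ATF6 arm were called higher and 10 lower (76.2%, compared to 63.4% of all tested genes), and the median log2 change was -0.18. Those called lower were the factors XBP1 and ATF6, the chaperones and folding enzymes HSP90B1, HYOU1, CANX, PDIA3, PDIA4, PDIA6 and DNAJC3, and MANF. In 1-2 KO, 6 were called higher and 4 lower (47.6%, compared to 54.4%), with a median of 0.05. This split was sensitive to scaling, with 11 higher and 3 lower when library size alone was used, and 2 higher and 6 lower when the change of neighbouring genes was subtracted. Only HERPUD1 (higher) and XBP1 (lower) passed the size threshold of 0.5 in 1-2 KO, and PDIA4 and CANX (both lower) did so in 1-1 KO. That is 9.52% of the 21 in each line, compared to 24.1% of all tested genes in 1-2 KO and 31.3% in 1-1 KO.

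XBP1 mRNA was at 360.05, 377 and 371 CPM in WT, 309.5, 314 and 315 in 1-1 KO, and 252, 228 and 233 in 1-2 KO. Both knockout lines lay below WT without overlap, 1-2 KO lower still. It was 1.18-fold lower in 1-1 KO (-0.24 ± 0.04, edgeR adjusted p = 0.000106) and 1.55-fold lower in 1-2 KO (-0.64 ± 0.04, adjusted p = 8.19e-09). ATF6 averaged 101 ± 3.45 CPM in WT, 81.0 ± 1.48 in 1-1 KO and 98.4 ± 5.29 in 1-2 KO, and was called lower in 1-1 KO alone (adjusted p = 1.49e-05 and 0.482). ERN1, which encodes IRE1, was called higher in 1-1 KO, by 1.16-fold (adjusted p = 0.00581), and its log2 difference of 0.12 in 1-2 KO was not called (adjusted p = 0.0952).

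HSPA5 encodes BiP, the main ER chaperone and the usual marker of the response. It was at 1115, 1167 and 1153 CPM in WT, 1091, 1105 and 1080.4 in 1-1 KO, and 1273, 1326 and 1353 in 1-2 KO. The 1-2 KO libraries lay above WT by 1.15-fold (0.20 ± 0.04, edgeR adjusted p = 0.000216), and the 1-1 KO libraries lay below WT by a difference that was not called (-0.07 ± 0.04, adjusted p = 0.103). That difference in HSPA5 was called without the first 1-2 KO library (adjusted p = 0.031), by DESeq2 (0.035), with the 2 lines fitted alone (0.0447) and with the change of neighbouring genes subtracted (-0.14, 0.0024). HSP90B1, the ER member of the HSP90 family, fell in both lines, from 2176 ± 42.9 CPM to 1669 ± 38.6 in 1-1 KO (1.30-fold, adjusted p = 8.36e-07) and 1579 ± 67.7 in 1-2 KO (1.38-fold, adjusted p = 1.65e-07). HYOU1, a large chaperone that works with BiP, fell 1.23-fold in 1-1 KO (adjusted p = 2.08e-05) and was not called in 1-2 KO (adjusted p = 0.61).

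Of the lectin chaperones that hold glycoproteins, CANX was at 2011, 2038 and 1999 CPM in WT, 1305, 1325 and 1300.2 in 1-1 KO, and 1987, 2152 and 2137 in 1-2 KO. All 1-1 KO libraries lay far below, a fall of 1.54-fold (-0.62 ± 0.04, edgeR adjusted p = 3.63e-09), and 1-2 KO overlapped WT (adjusted p = 0.236), although it was called higher without its first library (0.09, adjusted p = 0.0101). CALR, its soluble partner, was not called in 1-1 KO at an adjusted p of 0.0515, which became 0.033 without the second WT library and 0.0139 or 0.0433 without the first or second 1-2 KO library, and it fell 1.21-fold in 1-2 KO (adjusted p = 2.56e-05). CALR in 1-1 KO was also called by DESeq2 (-0.11, adjusted p = 0.0153) and, from a fitted change of -0.52, with the change of neighbouring genes subtracted (3.6e-08). The disulfide isomerase gene PDIA4 was at 456, 451 and 479 CPM in WT, 306, 308 and 311 in 1-1 KO, and 556, 543 and 558 in 1-2 KO. The lines did not overlap, and PDIA4 was 1.50-fold lower in 1-1 KO (-0.58 ± 0.03, adjusted p = 3.13e-09) but 1.20-fold higher in 1-2 KO (0.26 ± 0.03, adjusted p = 1.62e-05). PDIA3 and PDIA6 fell 1.26-fold and 1.32-fold in 1-1 KO, and in 1-2 KO PDIA3 fell 1.08-fold (adjusted p = 0.0108) and PDIA6 was not called (adjusted p = 0.365). DNAJC3, a cochaperone and inhibitor of PERK, fell 1.37-fold in 1-1 KO (adjusted p = 1.85e-07) and was not called in 1-2 KO (adjusted p = 0.193). DNAJB9, a cochaperone that represses IRE1, rose 1.14-fold in 1-1 KO (adjusted p = 0.00138).

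Among the members, HERPUD1, SEL1L, SYVN1 and EDEM1 encode parts of ER-associated degradation. HERPUD1, a membrane adaptor of the degradation complex, was at 47.7, 47.8 and 52.1 CPM in WT, 66.3, 61.6 and 64.0 in 1-1 KO, and 91.4, 75.4 and 82.3 in 1-2 KO. The lines did not overlap, and it was 1.30-fold higher in 1-1 KO (0.38 ± 0.06, edgeR adjusted p = 0.000103) and 1.69-fold higher in 1-2 KO (0.76 ± 0.06, adjusted p = 1.45e-07). As printed above, its promoter window holds both an ERSE-II and a C/EBP-ATF core, the only member window with both. SEL1L, the scaffold of the ubiquitin ligase, rose 1.29-fold and 1.19-fold (adjusted p = 4.23e-07 and 2.78e-05). The ligase SYVN1 and the lectin EDEM1 were called higher in 1-1 KO, by 1.16-fold and 1.08-fold (adjusted p = 0.00991 and 0.0394), and were not called in 1-2 KO. The 1-1 KO call of EDEM1 was lost on leaving out any of the 3 libraries of 1-1 KO, the first or the third of WT or the third of 1-2 KO (adjusted p from 0.0506 to 0.134), and that of SYVN1 without the second library of 1-1 KO (0.0562) or of WT (0.06).

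Small secreted or retained cofactors made up the rest of the arm. MANF, a stress-induced secreted protein, was 1.13-fold lower in 1-1 KO (edgeR adjusted p = 0.0134) but 1.14-fold higher in 1-2 KO (adjusted p = 0.0104), and its fall was not called without the third WT or second 1-1 KO library (adjusted p = 0.0846 and 0.0718), nor its rise without the first WT library (0.0551). SDF2L1, a partner of DNAJB11, had the widest spread of all members, at 12.4, 13.4 and 20.8 CPM in WT, 10.5, 9.36 and 10.7 in 1-1 KO, and 29.2, 13.5 and 12.3 in 1-2 KO. The high 1-2 KO value came from the first library alone, and the log2 change of 1-2 KO against WT was 0.26 (adjusted p = 0.437) with it and -0.25 (adjusted p = 0.214) without it. Its log2 difference of -0.60 in 1-1 KO (adjusted p = 0.0739) was called without that first 1-2 KO library (-0.59, adjusted p = 0.00228), without the third of 1-2 KO (0.0451) and without the first of WT (0.0468). CRELD2, an ER isomerase, was called in 1-2 KO at a log2 change of 0.21 (adjusted p = 0.0458) and not without the first 1-2 KO library (0.11, adjusted p = 0.213), nor without the first or second of WT or any of 1-1 KO (adjusted p from 0.0615 to 0.18). DNAJB11, a cochaperone of BiP, was called in neither line (adjusted p = 0.967 and 0.0963), but was called higher in 1-2 KO without the third library of that line (0.035) or of WT (0.028).

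**Figure D3:**
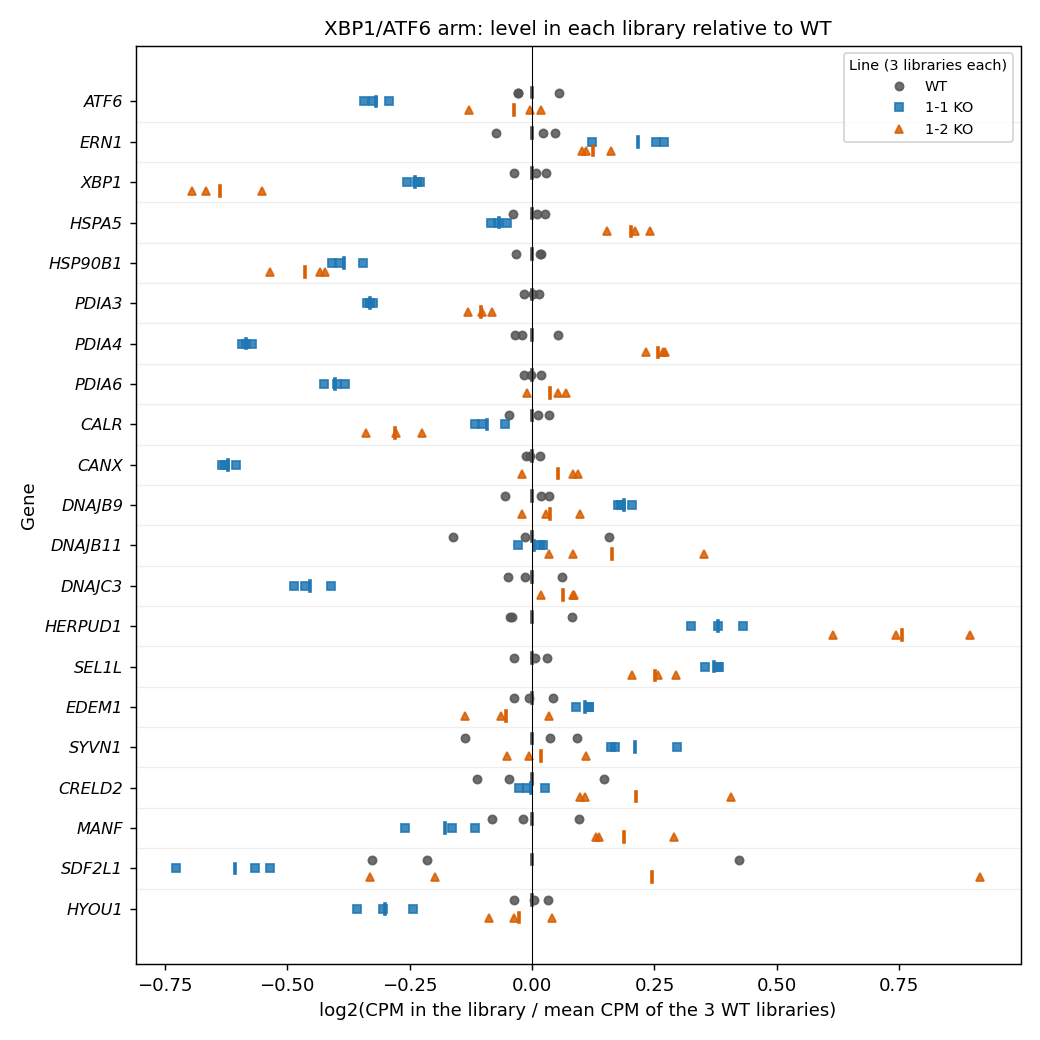
Level of the 21 genes of the XBP1/ATF6 arm in each library, as log2 of CPM over the mean of the 3 WT libraries (horizontal axis), with 1 row per gene; symbols are libraries and vertical ticks are the log2 of each line's mean. The 1-1 KO libraries of CANX and PDIA4 lie near -0.62 and -0.58, the 1-2 KO libraries of HERPUD1 lie to the right and those of XBP1 to the left, and the first 1-2 KO library of SDF2L1 stands alone.

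The 7 genes with an ERSE in the window (XBP1, HSPA5, HSP90B1, PDIA6, CALR, CANX and CRELD2) had a median log2 change of -0.24 in 1-1 KO, with 4 called lower and the other 3 not called, and a median of 0.04 in 1-2 KO, with 2 called higher and 3 lower. The 13 genes with a window but no ERSE had a median of 0.00 in 1-1 KO, with 6 called higher and 5 lower, and of 0.12 in 1-2 KO, with 4 called higher and 0 lower. Those 13 include HERPUD1, SDF2L1 and HYOU1, whose windows hold the shorter ERSE-II. Of all tested genes, 32.5% were called higher and 30.9% lower in 1-1 KO, and 28.2% and 26.2% in 1-2 KO. Neither group was tested as a set. In a wider list of ER folding, translocation and degradation genes, 63 of 64 were tested, of which 26 were called higher and 16 lower in 1-1 KO, and 11 higher and 28 lower in 1-2 KO. The prolyl isomerase gene FKBP14 rose 2.07-fold and the COPII coat gene SEC24D rose 1.99-fold in 1-1 KO (edgeR adjusted p = 2.99e-09 and 7.66e-12). SSR2, a subunit at the translocation channel, fell 1.79-fold there, and WFS1, an ER membrane protein, was 1.81-fold lower in 1-1 KO and 1.84-fold lower in 1-2 KO. In 1-2 KO the isomerase gene FKBP11 fell 1.98-fold (adjusted p = 3.13e-09), and the disulfide reductase gene DNAJC10 rose 1.32-fold (adjusted p = 2.21e-07). FKBP2 was called higher in 1-2 KO (2.45-fold, adjusted p = 0.044) at 0.477, 0.880 and 3.04 CPM in WT and 6.03, 2.08 and 2.12 in 1-2 KO, where the first library alone was high. Its log2 change of 1.30 became 0.60 without that library (adjusted p = 0.276), and FKBP2 was not called without the first or second of WT or any of 1-1 KO either (adjusted p from 0.0577 to 0.167).

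The 6 cytosolic heat shock genes moved in both directions. In 1-1 KO, 3 were called higher and 2 lower (compared to 63.4% of all tested genes in either direction), with a median log2 change of 0.30, and in 1-2 KO 3 were called higher and 2 lower (compared to 54.4%), with a median of 0.14. HSPA8, the constitutive HSC70 chaperone and the most abundant member, averaged 2812 ± 53.0 CPM in WT, 2218 ± 55.0 in 1-1 KO and 2483 ± 131 in 1-2 KO. It was lower in both lines, by 1.27-fold and 1.13-fold (edgeR adjusted p = 5.01e-06 and 0.00193). DNAJB1, the HSP40 that works with inducible HSP70, was higher in both, by 1.38-fold and 1.14-fold (adjusted p = 2.16e-06 and 0.00618). HSPH1, an exchange factor of HSP70, was 1.20-fold lower in 1-1 KO but 1.10-fold higher in 1-2 KO (adjusted p = 5.2e-06 and 0.00222). HSF1, the transcription factor of the response, rose 1.42-fold in 1-1 KO (adjusted p = 1.22e-05) and was not called in 1-2 KO (adjusted p = 0.0964), although it was called there without the third WT library (0.0369) and with library size alone (0.0315).

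HSPA1A and HSPA1B encode the same inducible HSP70 from neighbouring copies on chromosome 6, and 73.7% and 73.6% of their 50-base stretches occur in another gene's transcripts as well, mostly in each other's. HSPA1B was at 19.6, 19.8 and 24.0 CPM in WT, 41.3, 38.9 and 40.5 in 1-1 KO, and 16.7, 15.6 and 14.6 in 1-2 KO. The lines did not overlap, with a rise of 1.91-fold in 1-1 KO (0.93 ± 0.07, edgeR adjusted p = 6.56e-08) and a fall of 1.35-fold in 1-2 KO (-0.43 ± 0.08, adjusted p = 0.000271). HSPA1A averaged 40.3 ± 3.83, 44.5 ± 1.32 and 46.7 ± 2.06 CPM and was called in 1-2 KO alone (1.16-fold, adjusted p = 0.00892). Its log2 change there moved from 0.21 to 0.14 without the second WT library (adjusted p = 0.0438), and its difference in 1-1 KO (0.15, adjusted p = 0.0525) was called without the third WT (0.0122) or the first 1-2 KO library (0.0452). The sum of both copies does not depend on how shared reads were divided between them, but would lack them if they were discarded. It was 55.8 to 67.3 CPM in WT, 84.4 to 85.3 in 1-1 KO and 60.5 to 63.6 in 1-2 KO. The 1-1 KO libraries lay above WT in the sum as well, and 1-2 KO lay within the WT range. The ratio of HSPA1A to HSPA1B was 1.81 to 2.12 in WT, 1.04 to 1.18 in 1-1 KO and 2.78 to 3.35 in 1-2 KO, and how reads matching both copies were counted is not stated, so that the values of each copy remain uncertain.

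**Figure D4:**
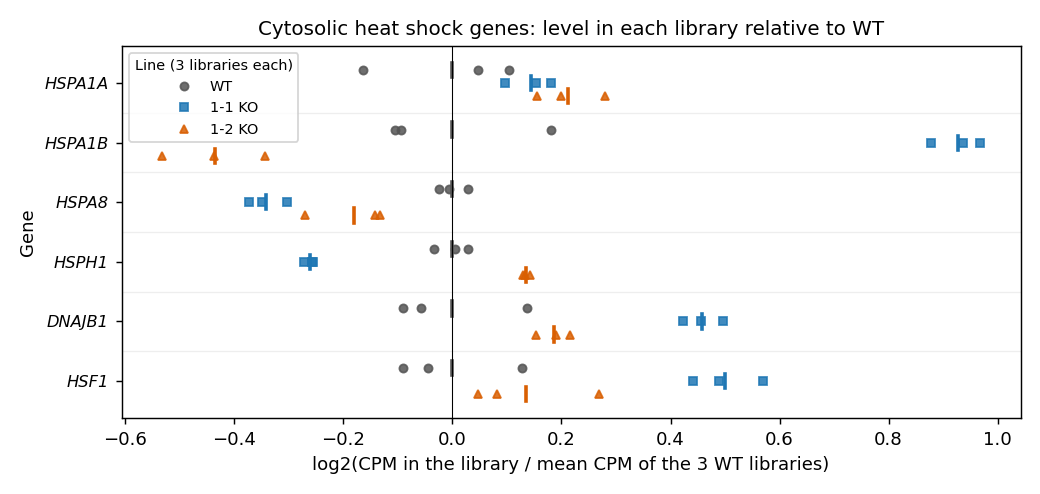
Level of the 6 cytosolic heat shock genes in each library, as log2 of CPM over the mean of the 3 WT libraries (horizontal axis), with 1 row per gene; symbols are libraries and vertical ticks are the log2 of each line's mean. HSPA1B lies at 0.93 in 1-1 KO and -0.43 in 1-2 KO, and all knockout libraries of HSPA8 lie to the left of WT.

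A wider list of cytosolic chaperones and cochaperones also holds SERPINH1, whose product is a chaperone of the ER. Among its 31 tested genes, 5 were called higher and 17 lower in 1-1 KO, and 9 higher and 7 lower in 1-2 KO, which became 11 and 4 with library size alone. With TMM scaling, 71.0% were called in 1-1 KO and 51.6% in 1-2 KO, compared to 63.4% and 54.4% of all tested genes. DNAJB4 was 1.60-fold lower in 1-1 KO and 1.79-fold lower in 1-2 KO (edgeR adjusted p = 5.07e-08 and 8.15e-09). The HSP70 exchange factor BAG3 fell 1.44-fold in 1-1 KO, and BAG2 fell 1.55-fold in 1-2 KO. DNAJA4 rose 1.88-fold in 1-2 KO (adjusted p = 5.23e-07). The small heat shock gene HSPB1 was called higher there (1.50-fold, adjusted p = 0.0104), at 64.3, 63.6 and 78.1 CPM in WT and 145, 79.5 and 82.9 in 1-2 KO. The first 1-2 KO library was the high one, and without it the log2 change of HSPB1 moved from 0.58 to 0.25 (adjusted p = 0.00904). The collagen chaperone gene SERPINH1 and the kinase cochaperone gene CDC37 rose 1.39-fold and 1.34-fold in 1-1 KO. Of 12 mitochondrial chaperones and proteases, 2 were called higher and 6 lower in 1-1 KO (4 and 4 with library size alone), and 5 higher and 4 lower in 1-2 KO (7 and 3). With TMM scaling these are 66.7% and 75% of the 12, compared to 63.4% and 54.4% of all tested genes. The import cochaperone gene GRPEL1 was 1.88-fold lower in 1-1 KO and 1.48-fold lower in 1-2 KO (adjusted p = 2.25e-10 and 3.34e-08), and the protease gene LONP1 rose 1.19-fold and 1.30-fold (adjusted p = 0.000398 and 1.03e-05). In 1-1 KO, SPG7 was called higher by 1.11-fold, a call lost without any of the 1-1 KO libraries or the second or the third of WT (adjusted p from 0.0515 to 0.174), and CLPX fell 1.35-fold. TRAP1 was 1.33-fold lower in 1-1 KO but 1.20-fold higher in 1-2 KO (adjusted p = 5.06e-05 and 0.00227). YME1L1 fell 1.30-fold in 1-2 KO and was called lower by 1.06-fold in 1-1 KO (adjusted p = 0.0359). That 1-1 KO call was lost without any of the 1-1 KO libraries or the first or second of WT (adjusted p from 0.0594 to 0.113).

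Set directly against each other, the knockout lines differed in 38 of the 43 members, 26 higher and 12 lower in 1-2 KO than in 1-1 KO (88.4%, compared to 65.3% of all tested genes, 33.1% higher and 32.2% lower). In the ATF4 arm, 12 of 16 were higher and 3 lower in 1-2 KO, with a median log2 difference of 0.53, compared to 0.01 over all tested genes. With the size threshold, 9 were higher and 1 lower, compared to 34.2% of all tested genes in either direction, 17.3% higher and 16.9% lower. With the change of neighbouring genes subtracted, 11 were higher and 1 lower. The largest steps were those of CHAC1 (3.45-fold, edgeR adjusted p = 1.57e-10), ASNS (2.60-fold, adjusted p = 1.58e-06) and TRIB3 (2.29-fold, adjusted p = 7.7e-10), and EIF2AK3 was 1.56-fold lower (adjusted p = 5.46e-08). In the XBP1/ATF6 arm, 12 of 21 were higher and 6 lower, with a median of 0.23, led by PDIA4 (1.79-fold, adjusted p = 5.12e-11) and CANX (1.60-fold, adjusted p = 1.13e-09), and XBP1 was 1.32-fold lower (adjusted p = 6.96e-07). HSPA1B was 2.57-fold lower in 1-2 KO (adjusted p = 1.13e-09), and HSPH1 1.32-fold higher (adjusted p = 5.95e-08). SDF2L1 was called at 1.81-fold (adjusted p = 0.0129) and not without the first 1-2 KO library (log2 difference 0.35, adjusted p = 0.078). Without the same library the difference of CEBPB moved from 0.68 to 0.36 (adjusted p = 0.009).

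For each member the median log2 fold change of the 50 tested genes nearest on its chromosome was computed, since lines of an aneuploid tumour cell can differ over whole regions. In 1-1 KO this median was -0.37 around PDIA4, -0.34 around CANX and -0.32 around TRIB3, 0.42 around EIF2AK3 and 0.55 around HSF1, in each case on the side of the gene's own change. For other members it lay on the opposite side, among them CALR (0.43, own change -0.09), PPP1R15A (0.42, own -0.02) and DNAJB9 (-0.30, own 0.19). With that median as an offset in the edgeR fit, 5 of the 31 members called in 1-1 KO were no longer called, namely HSF1 (-0.05, adjusted p = 0.556), SEL1L (0.05, adjusted p = 0.202), XBP1 (-0.05, adjusted p = 0.31), VLDLR (-0.05, adjusted p = 0.482) and PSAT1 (-0.09, adjusted p = 0.0579). In 1-2 KO the same held for 8 of 29, namely HSPA5 (0.07, adjusted p = 0.117), PDIA4 (0.03, adjusted p = 0.474), HSPA1B (-0.06, adjusted p = 0.57), MANF (0.02, adjusted p = 0.795), HSPH1 (0.01, adjusted p = 0.881), DNAJB1 (0.03, adjusted p = 0.651), CRELD2 (0.10, adjusted p = 0.352) and PPP1R15A (-0.04, adjusted p = 0.565). Calls were also gained with the offset. In 1-1 KO, PPP1R15A (-0.44, adjusted p = 2.77e-06), EIF2AK4 (0.18, 0.00154), HSPA1A (0.30, 0.000809), HSPA5 (-0.14, 0.0024) and CALR (-0.52, 3.6e-08) became called. In 1-2 KO, CANX (-0.13, adjusted p = 0.00608) and DNAJC3 (-0.13, 0.0118) were then called lower. Around CHAC1 the neighbours stood at 0.03 in 1-1 KO and 0.04 in 1-2 KO, around ASNS at -0.13 and 0.04, and around PHGDH at 0.03 and -0.18, medians that were small beside the 1-2 KO changes of these genes. In the ATF4 arm, 14 of 16 genes were still called higher in 1-2 KO with the offset, SESN2 having joined (0.38, adjusted p = 0.00196) and PPP1R15A having dropped out, and EIF2AK3 was called lower (-0.14, adjusted p = 0.0301). Some genes named from the wider lists lost their calls as well. In 1-1 KO these were IMPACT (0.13, adjusted p = 0.0791), CDC37 (0.02, adjusted p = 0.811), GDF15 (0.10, adjusted p = 0.383), DNAJA4 (-0.18, 0.111) and PPP1CC (-0.05, 0.216). In 1-2 KO they were DELE1 (-0.12, adjusted p = 0.0773), PPP1CC (-0.08, adjusted p = 0.0539), TRAP1 (0.05, adjusted p = 0.528), FKBP2 (1.24, adjusted p = 0.0542), FKBP14 (0.09, 0.246) and SARS1 (0.05, 0.307). In 1-1 KO, LONP1 became -0.23 (adjusted p = 0.000924) and YME1L1 became 0.10 (adjusted p = 0.01955). Other 1-1 KO changes kept their calls with a smaller size, among them EIF2AK1 (from 0.67 to 0.14), SSR2 (from -0.84 to -0.13) and FKBP14 (from 1.05 to 0.53). Those of DELE1 (from -0.17 to -0.36) and SPG7 (from 0.15 to 0.31) grew. Copy number itself was not measured.

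**Figure D5:**
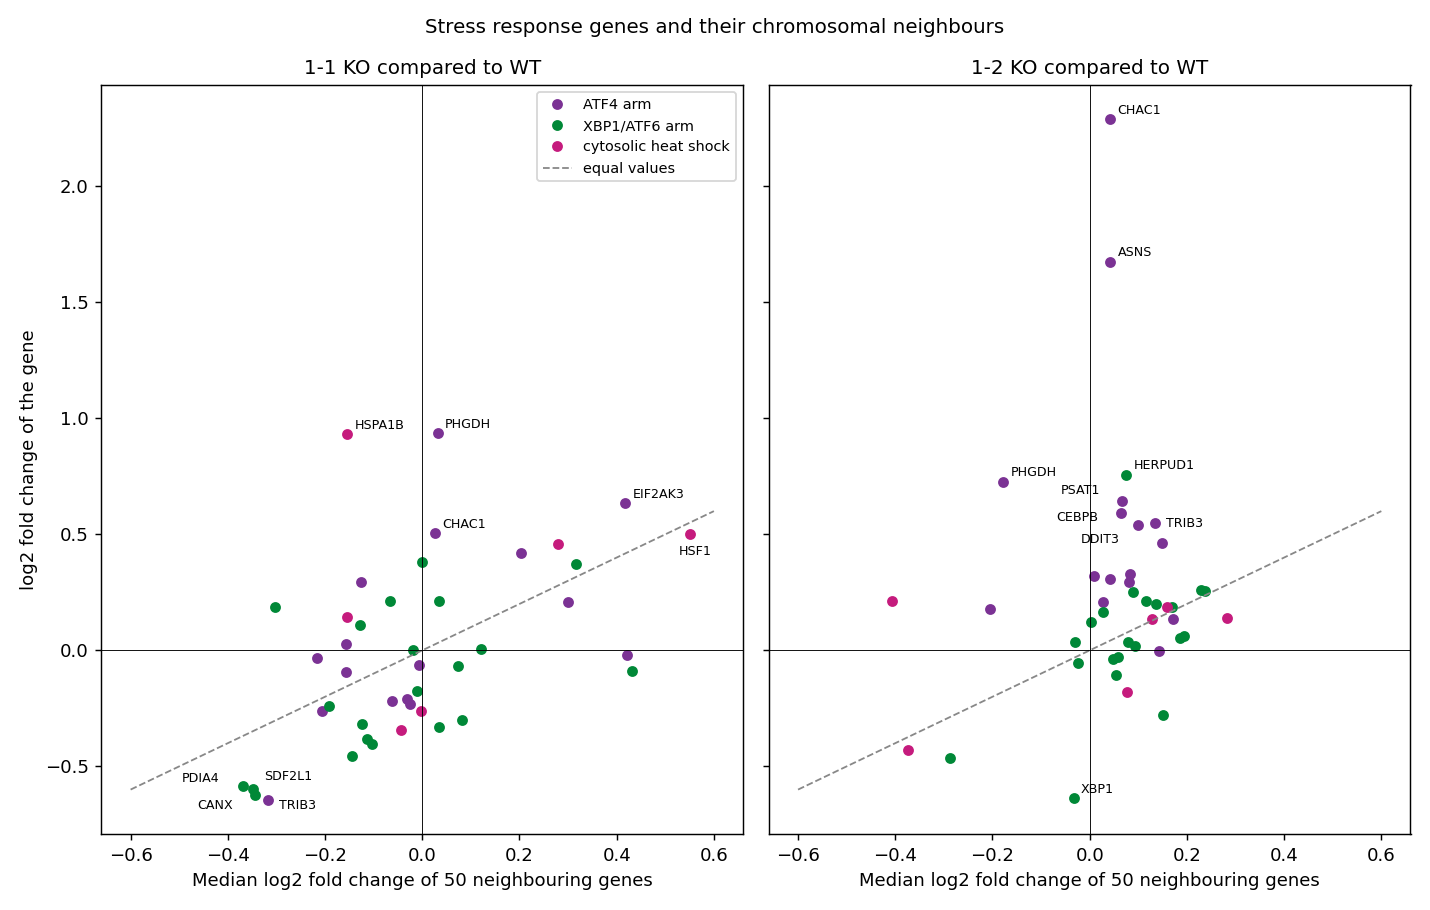
The log2 fold change of each of the 43 members against WT (vertical axis) and the median log2 change over 50 neighbouring tested genes (horizontal axis) in 1-1 KO (left) and 1-2 KO (right); colours mark the 3 lists and the dashed line marks equal values. HSF1, EIF2AK3, PDIA4, CANX and TRIB3 have neighbours shifted to their own side in 1-1 KO, while those of CALR, PPP1R15A and DNAJB9 are shifted to the other side. In 1-2 KO, CHAC1 and ASNS stand far above neighbours near 0.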

How the data were processed

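Stranded mRNA libraries of the 3 Huh-7 lines (3 each) were sequenced as paired 50-base reads. STAR was the aligner (hg38, annotation version 104) and featureCounts the counter used by the authors. The deposited values are raw counts per gene, neither normalized nor filtered. Strand and multimapping settings are not given in the sources used here. Genes were placed with GENCODE 44.

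Counts were tested in R 4.3.3 with edgeR 4.0.16 (filterByExpr at min.count 10 and min.total.count 15, TMM, glmQLFit and glmQLFTest). All 9 libraries entered 1 fit with line as the only term, and p-values were adjusted by Benjamini-Hochberg over 17207 tested genes. On simulated data of 16973 genes for 1-1 KO against WT, 37 of 50 genes changed 1.5-fold and 47 of 50 changed 4-fold were called, with 2 false calls. Unlike the real data, the simulated data had 16778 unchanged genes and a common spread, so these shares need not carry over. Same-numbered libraries did not deviate together (r between -0.353 and 0.182), so no block was used. The highest r between libraries of different lines was 0.459, for the third of WT and the first of 1-2 KO, and its cause was not tested. Alternatives were DESeq2 1.42.0, its size factors, library size alone, other filters, pairwise fits, a replicate block, an adjusted p under 0.01, a neighbour offset and each library left out. All 43 members were described. From each of the 5 wider lists were named, per knockout, the pair of genes with the largest rise and the pair with the largest fall among those called at a mean of at least 1 CPM; groups within a list, GDF15, and genes called differently without a library were described after their values were seen. Members and lists were chosen with earlier results of these data known.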

Additional observations from a re-analysis of the deposited data

Results flagged for a closer look

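In 9 of the 43 members, both knockout lines were called against WT in opposite directions, and the direct edgeR comparison of 1-2 KO with 1-1 KO was called as well, which is 20.9%, compared to 11.7% of all tested genes. With the change of neighbouring genes subtracted, 4 of the 9 remained so, while VLDLR lost its call in 1-1 KO (-0.05, adjusted p = 0.482), and PDIA4 (0.03, 0.474), MANF (0.02, 0.795), HSPA1B (-0.06, 0.57) and HSPH1 (0.01, 0.881) lost theirs in 1-2 KO. Under this offset 5 of the 43 members met the rule, which is 11.6%, near the 10% of all tested genes. The direct log2 differences were 0.53 for ATF4, 1.19 for TRIB3, 0.54 for SHMT2, 0.67 for MTHFD2 and 0.59 for VLDLR in the ATF4 arm, each higher in 1-2 KO. They were 0.84 for PDIA4 and 0.37 for MANF in the XBP1/ATF6 arm, and -1.36 for HSPA1B and 0.40 for HSPH1 among the heat shock genes. The calls against WT share the 3 WT libraries. In PDIA4 the median of the 50 neighbouring genes differed by 0.62 in the direct comparison, and in TRIB3 by 0.49, compared to -0.06 for HSPA1B.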

How the results depend on the processing

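Of the 98 calls made for members over the 3 comparisons, 94 held with DESeq2, 96 with DESeq2's size factors, 96 with library size alone, 96 without the filter, 96 with at least 10 counts in every library, 95 with the 2 compared lines fitted alone and 87 at an adjusted p under 0.01. Subtracting the change of 50 neighbouring genes left 76, with 16 no longer called and 6 on the other side of 0. The replicate block left 96, and same-numbered libraries share only a number. Leaving out 1 library left between 91 and 97. The cause of these shifts was not tested. Genes with 20 to 90 counts per library, such as ASNS, rest on few reads. Small differences were called less often in the self-test, 21 of 50 genes changed 1.25-fold, compared to 37 of 50 changed 1.5-fold. That self-test left 16778 genes unchanged and gave all genes a common spread, whereas 63.4% of tested genes were called in 1-1 KO. Its shares therefore need not hold for these data.

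In 1-2 KO compared to WT, the neighbour offset moved the ATF4 arm genes called lower from 0 to 1 (EIF2AK3), the XBP1/ATF6 genes called higher from 6 to 2, the heat shock genes called higher from 3 to 1 and those called lower from 2 to 1. Between the knockouts it moved the ATF4 arm genes called lower from 3 to 1. Library size alone, which raised the median log2 change of all genes against WT by 0.05 to 0.06, moved the XBP1/ATF6 genes called higher in 1-2 KO from 6 to 11.

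Some log2 changes turned sign. With the neighbour offset these were, in 1-1 KO, PSAT1 (-0.091), CEBPB (0.061), EIF2AK4 (0.18), DNAJB11 (-0.12), CRELD2 (0.018) and HSF1 (-0.048), and in 1-2 KO PPP1R15A (-0.036), PDIA6 (-0.041), CANX (-0.13), DNAJC3 (-0.13), SYVN1 (-0.074) and HSF1 (-0.14). Between the knockouts they were PHGDH (0.00082), HSP90B1 (0.095), CALR (0.092) and SEL1L (0.11). Under library size alone the values that turned were, in 1-1 KO, PPP1R15A (0.032), EIF2AK4 (0.018) and CRELD2 (0.050), and in 1-2 KO EIF2AK3 (0.052), ATF6 (0.017), EDEM1 (0.0018) and HYOU1 (0.028). With at least 10 counts in every library PPP1R15A (0.0035) and CRELD2 (0.022) turned in 1-1 KO, with the 2 lines alone CRELD2 (0.0026) did, and DNAJB11 did with DESeq2 (-0.012), its size factors (-0.0067) and no filter (-0.0098). Apart from PSAT1 and HSF1 in 1-1 KO, PPP1R15A in 1-2 KO, and PHGDH, CALR and SEL1L between the knockouts, none of these had been called. Leaving out 1 library, the log2 change in 1-1 KO ranged from -0.028 to 0.077 for SESN2, -0.054 to 0.026 for PPP1R15A, -0.072 to 0.092 for DNAJB11 and -0.055 to 0.078 for CRELD2. In 1-2 KO it ranged from -0.053 to 0.034 for EIF2AK3, -0.071 to 0.0066 for ATF6, -0.047 to 0.067 for SYVN1, -0.25 to 0.50 for SDF2L1 and -0.061 to 0.0025 for HYOU1.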
